A study of Mus musculus with 12 samples.

Results

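The genes described here are 10 members of the integrated stress response and of the stress-secreted hormones called mitokines: Atf4, Atf5, Ddit3, Trib3, Asns, Chac1, Psat1, Phgdh, Fgf21 and Gdf15. They were chosen by symbol, as the rows of the series' joint count table that carry these 10 names, out of 55573 genes in that table. Their levels were compared between mouse adipocytes carrying 3 forms of the nuclear receptor PPARγ, with the question of whether lower respiratory chain transcripts come with a stress response. The labels give a C57BL/6 background, and the study's methods name C57BL/6 J mice for the edited zygotes and for the cross of their mutant offspring. WT cells carried the unchanged Pparg gene and came from littermates of the mutants, according to the study's methods. TA cells carried the alanine substitution T166A and TD cells the aspartate substitution T166D, each made in the germ line by Cas9 editing and bred to homozygosity, so every cell of the animal carried it. Stromal vascular cells of the subcutaneous (inguinal) fat pad were grown to confluence and differentiated for 4 days with 850 nM insulin, 1 nM triiodothyronine, 0.5 mM IBMX, 125 nM indomethacin and dexamethasone, then kept in insulin and triiodothyronine and harvested on day 8. There were 4 libraries per genotype and 12 in all. The age of the animals, and whether libraries of one genotype came from separate mice or cultures, are not given in the sources used here, so the p-values below measure the spread between these libraries, which may be technical.

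In the integrated stress response, any of 4 kinases phosphorylates the translation factor eIF2α. General protein synthesis then slows, while the transcription factor ATF4 is translated more efficiently from an mRNA with upstream reading frames. ATF4 switches on genes for amino acid uptake and synthesis and for tRNA charging, together with the transcription factors CHOP (the product of Ddit3) and ATF5, the pseudokinase TRIB3 and the glutathione-degrading enzyme CHAC1. Failing mitochondria are among the known triggers, and the hormones FGF21 and GDF15 are the secreted output then called mitokines. Since ATF4 is controlled mostly at translation, its mRNA level is only one readout of the pathway, and the mRNAs of its targets are the usual surrogate.

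The DNA element through which ATF4 acts is a composite CCAAT-enhancer binding protein and ATF site. The RefSeq promoter windows of the genes (GRCm38.p6, 250 bases before to 50 bases after each annotated transcription start, 13 windows for all 10 genes) were searched on both strands for TGATGNAA. A match occurred in 4 genes, and 3.97% of all 32851 windows of the same length held one. Counted by gene symbol, a match occurred in 2.81% of the 10870 symbols that had a window and were tested for expression below. The matching stretches of these 4 genes are shown, with 108 bases where the stretch lies clear of the transcribed part and 30 bases otherwise. The match is in capitals as read on the gene's own strand, so that a match on the opposite strand appears as its reverse complement.
Chac1 (chr2:119350999-119351106, plus strand): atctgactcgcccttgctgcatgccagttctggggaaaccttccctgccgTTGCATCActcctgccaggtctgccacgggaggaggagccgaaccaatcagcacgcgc
Fgf21 (chr7:45615572-45615679, minus strand): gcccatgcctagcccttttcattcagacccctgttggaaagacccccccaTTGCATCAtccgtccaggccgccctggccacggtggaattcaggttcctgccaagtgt
Asns (chr6:7693214-7693243, minus strand): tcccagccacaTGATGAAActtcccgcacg
Trib3 (chr2:152344028-152344057, minus strand): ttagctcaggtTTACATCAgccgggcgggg
The Chac1 match began 193 bases and the Fgf21 match 139 bases before the annotated start. The Asns match began 23 bases before it, and the Trib3 match began 15 bases after it. These are letter matches only, and the series holds no binding data for ATF4. Of the 41 other ATF4 target genes listed below, 31 had a window and 11 of these held the motif. The longer ER stress element ERSE was found in 0.119% of all windows and in no window of the 10 genes.

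**Figure D1:**
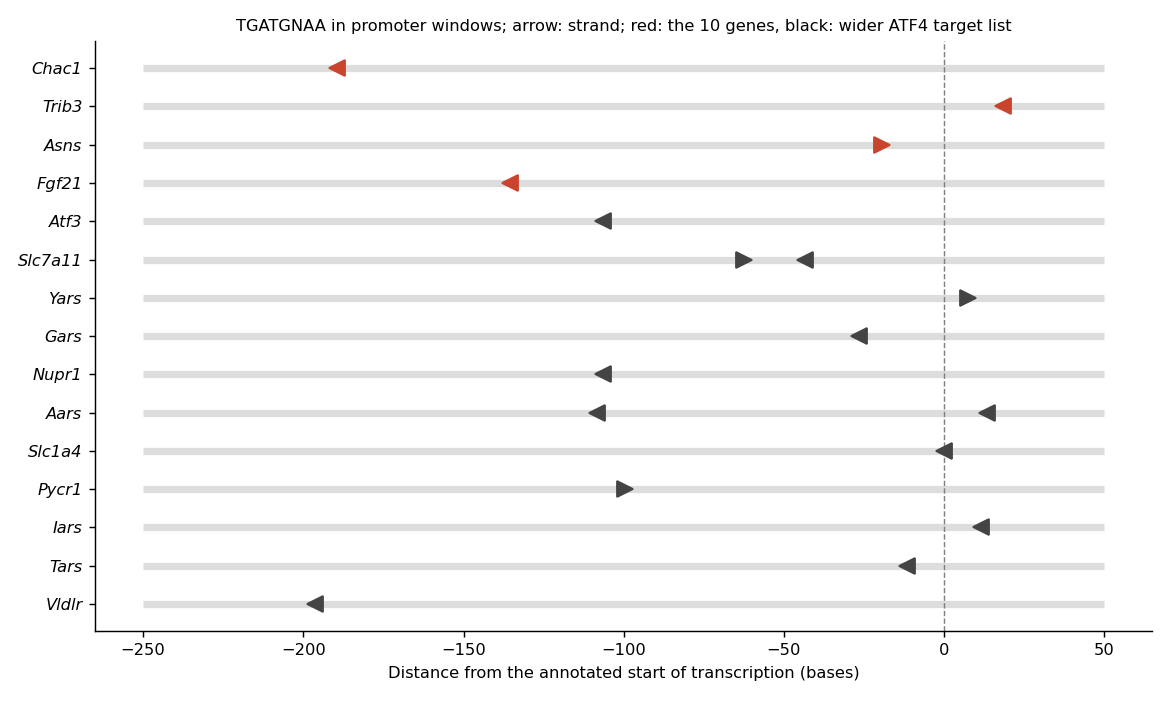
Position of the motif TGATGNAA in the promoter windows of genes with a match: the x axis is the distance in bases from the annotated start of transcription, each grey bar is 1 window, arrowheads give the strand, red marks the 10 genes described here and black the wider ATF4 target list. The 4 matches in red lie between 193 bases before and 22 bases after the start.

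The 12 libraries held 16553324 to 20324286 counts. Every WT library (18823619 to 20324286) was deeper than every TA and TD library. Levels below are CPM, the counts scaled to a common library total after TMM normalisation. All libraries expressed adipocyte markers: 10 markers (Adipoq, Fabp4, Plin1 and others) summed to 20258 to 22891 CPM in WT, 19038 to 24178 in TA and 14125 to 16143 in TD, and 9 of the 10 were lower in TD than in WT. Pparg itself was at 331 to 373 CPM in WT, 322 to 428 in TA and 210 to 258 in TD, a log2 difference of -0.58 ± 0.095 (SE) between TD and WT (adjusted p = 0.000429, edgeR). A point substitution leaves the count of its gene free to vary, so these counts do not check the labels. Markers of other cells moved with genotype as well. The 14 muscle genes summed to 6.34 to 16 CPM in WT (2 of them, Myod1 and Myog, at 0 in every WT library), 24.4 to 93.6 in TA and 23.0 to 356 in TD, where TD replicates 3 and 4 were highest at 356 and 201. The 8 fibroblast markers summed to 3770 to 4559 CPM in WT, 3541 to 6533 in TA and 6165 to 8487 in TD, and 6 endothelial markers to 25.4 to 54.4, 48.8 to 88.8 and 101 to 130. The 9 macrophage markers spanned 279 to 815, 138 to 598 and 633 to 878 CPM. Between TD and WT, 13 of 13 tested muscle genes, 6 of 6 endothelial, 6 of 8 fibroblast and 1 of 9 macrophage markers rose, and between TA and WT 8, 4, 5 and 0 did (edgeR). Among all genes 15.1% rose in TD and 6.72% in TA, so the macrophage share in TD (11.1%) was below that of all genes. With TD replicates 3 and 4 left out the TD counts were 10, 6, 5 and 0 (edgeR, with 2 macrophage markers higher at an unadjusted p under 0.05), and 9 muscle genes rose in TA. Of all 15673 genes then tested, 837 rose in TD and 936 in TA against WT. At an unadjusted p under 0.05, 4 of 9 macrophage markers were lower in TA than in WT and none was higher, with a median log2 fold change of -0.71, and 9 of 9 were higher in TD than in TA, where 3 passed after adjustment. The part of these other cells in the differences below was not tested, and in bulk RNA fewer cells of a type and less RNA per cell cannot be told apart. Counts of genes below are therefore also given without TD replicates 3 and 4, the TD libraries with the most muscle transcripts, a choice made after seeing these values. Of the 12 libraries, these 2 also had the lowest adipocyte sums (15041 and 14125 CPM) and the highest fibroblast sums (8133 and 8487 CPM). They had the lowest values of the respiratory chain score described below as well (-0.485 and -0.623).

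All 10 genes passed the filter on low counts. Per kilobase of exon, a scale on which levels of different genes may be compared, the mean over the 12 libraries put the transcription factors on top, Atf5 at 124 CPM per kb and Atf4 at 79.3. Psat1 (35.4) and Asns (35.0) were next and close together, followed by Trib3 (28.5), then by Ddit3 and Phgdh (both 14.5). Gdf15 (4.40) and Chac1 (3.12) were low, and Fgf21, at 0.412 CPM per kb, rested on 1 to 16 counts per library.

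**Figure D2:**
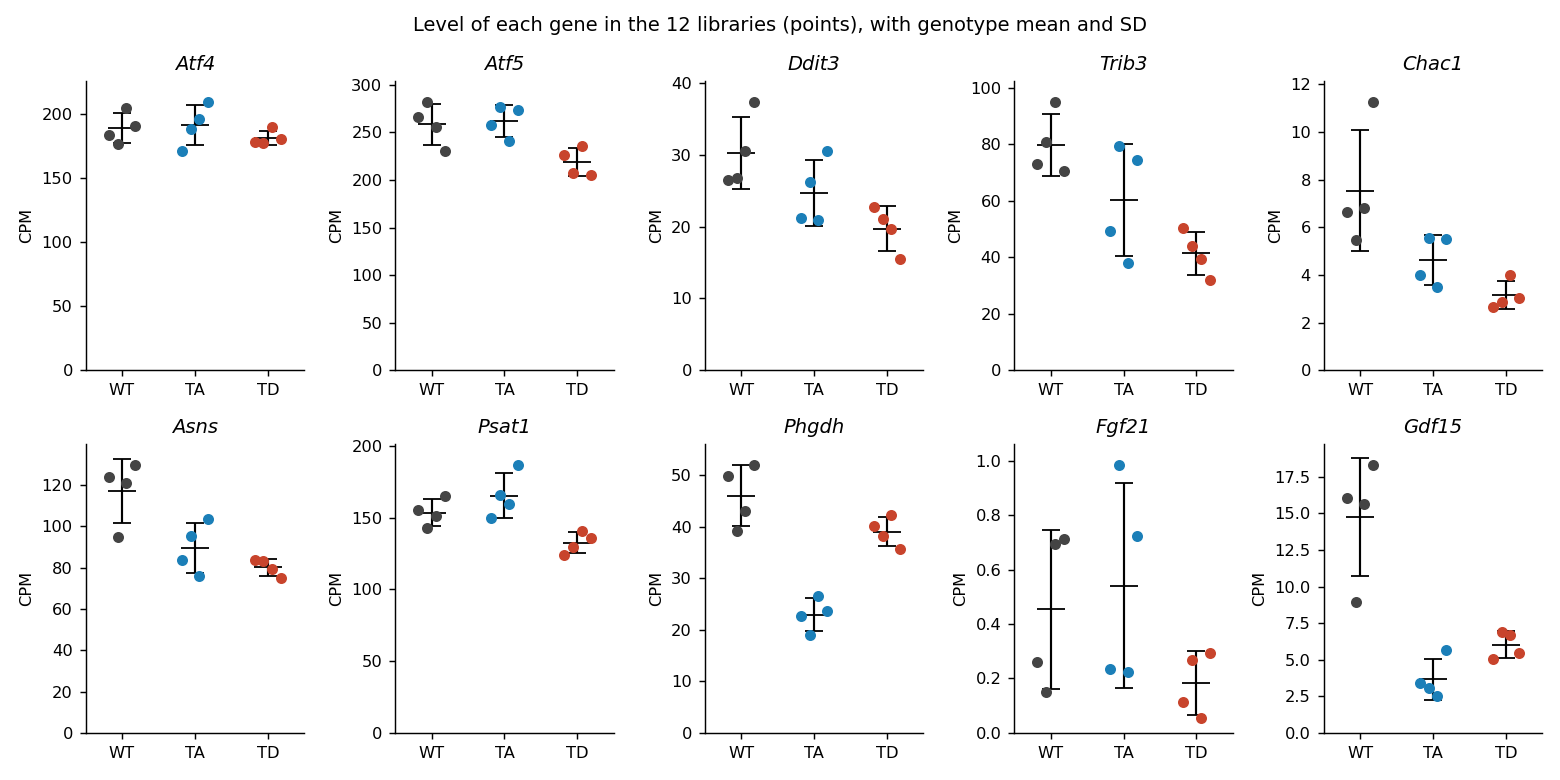
Level of each of the 10 genes in CPM (y axis, from 0) in the 4 libraries of WT, TA and TD: points are libraries, the horizontal mark is the genotype mean and the bars are 1 SD. TD points lie below all WT points for Ddit3, Trib3, Chac1, Asns, Gdf15 and Psat1, TA points lie below all WT points for Phgdh and Gdf15, and the 3 genotypes overlap for Atf4.

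No gene of the set was higher in TD than in WT, and 7 of the 10 were lower at an adjusted p under 0.05 (edgeR quasi-likelihood test, Benjamini-Hochberg over 15117 genes): Gdf15, Chac1, Trib3, Ddit3, Asns, Atf5 and Psat1. Among all genes tested, lower calls in this comparison made up 14.2% and higher calls 15.1%. Scaling by library totals alone turned the split from 2276 higher and 2142 lower to 2840 higher and 1558 lower. In 6 of the 7 (all but Atf5) every TD library lay below every WT library, a pattern seen in 16.4% of all genes. The median log2 fold change of the 10 was -0.58, against 0.011 for all genes tested. Without TD replicates 3 and 4 the count fell from 7 to 4 of 10 (Gdf15, Chac1, Trib3 and Asns), with adjusted p = 0.0957 for Ddit3, 0.133 for Atf5 and 0.0965 for Psat1, while all 10 log2 fold changes stayed below 0. Among all genes, 679 of 15673 were then called lower, in place of 2142 of 15117.

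TA differed from WT in 3 genes, all of them lower: Gdf15, Phgdh and Asns. Over all genes 4.41% were called lower in TA and 6.72% higher. Gdf15 and Phgdh had no overlap between TA and WT libraries, which held for 5.85% of all genes in that direction, and the median log2 fold change of the 10 genes was -0.34 against -0.0056 for all genes. Compared with TA, TD was lower in Atf5 and Psat1 and higher in Phgdh. There the background was 9.37% of genes lower and 7.33% higher, non-overlap in the same directions was seen in 10.6% and 9.32% of genes, and the median of the 10 was -0.29 against 0.023 over all genes. With library totals alone the split of all calls between TD and TA reversed, from 1108 higher and 1416 lower to 1802 higher and 982 lower. Without TD replicates 3 and 4 the TA against WT count stayed at 3 of 10 and the TD against TA count was 2. Of 15673 genes tested, 552 were then called lower in TA against WT. Between TD and TA, 634 were called in either direction. The comparisons share libraries and are therefore given side by side, not as repeats of each other.

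**Figure D3:**
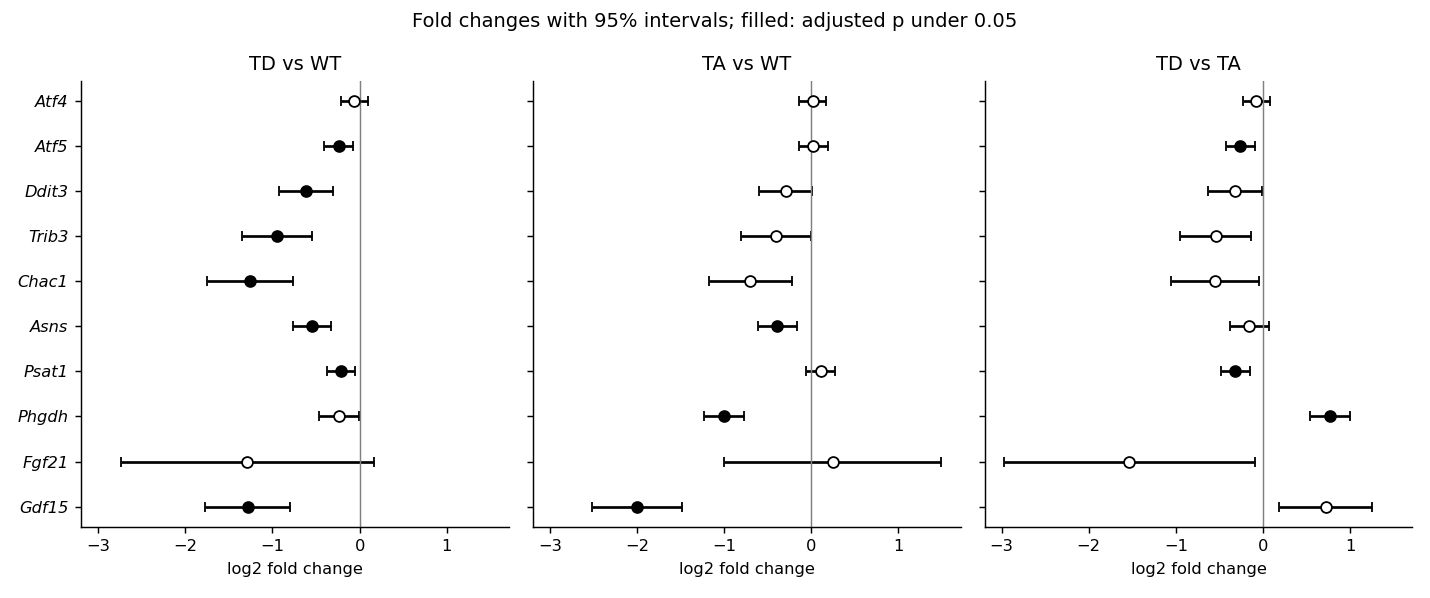
The log2 fold change of each gene (x axis) in TD against WT, TA against WT and TD against TA, as the fitted value with its 95% interval: filled points have an adjusted p under 0.05. All 10 points lie left of 0 in TD against WT, 7 of them filled, and the interval for Fgf21 is wide in each comparison.

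Among the transcription factors, Atf4 was level across the genotypes. It was at 184, 176, 205 and 191 CPM in WT replicates 1 to 4, at 171, 188, 196 and 209 in TA, and at 178, 177, 189.5 and 180.1 in TD. The libraries of all 3 genotypes overlapped throughout. The log2 difference was -0.06 for TD against WT (95% interval -0.21 to 0.095, adjusted p = 0.582) and 0.02 for TA against WT (-0.14 to 0.17, adjusted p = 0.918), and both signs turned in alternatives given in the closing section.

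Atf5, a paralogue of ATF4 that is itself tied to the mitochondrial protein-folding response, was at 266, 282, 256 and 230.3 CPM in WT, at 258, 277, 241 and 273 in TA, and at 226, 208, 236 and 205 in TD. The highest TD library thus reached just above the lowest WT library but stayed below all TA libraries. Atf5 was lower in TD by a log2 value of -0.24 ± 0.079 against WT (adjusted p = 0.0305) and by -0.26 ± 0.079 against TA (adjusted p = 0.0324). Neither call held under all alternatives: leaving out WT replicate 1, 2 or 3 or TD replicate 2 or 4 gave adjusted p values of 0.0512 to 0.0978 against WT, and leaving out TA replicate 1, 2 or 4 or TD replicate 2 or 4 gave 0.0591 to 0.105 against TA. Scaling by library totals alone gave 0.109 and 0.112. TA and WT did not differ detectably (0.02, 95% interval -0.15 to 0.19, adjusted p = 0.909). Atf5 (chr7:44812256-44816658, GRCm38) overlaps Nup62 on the opposite strand, a gene with a mean of 688 counts per library against 4508 for Atf5.

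Ddit3 encodes CHOP, a factor that links prolonged stress to cell death. It was at 26.5, 26.8, 30.5 and 37.3 CPM in WT, at 21.2, 26.1, 20.9 and 30.5 in TA, and at 22.8, 21.0, 19.6 and 15.5 in TD. TD libraries all lay below the WT libraries, and TA libraries overlapped both groups. The fall in TD against WT was -0.62 ± 0.145 on the log2 scale, 1.53-fold (adjusted p = 0.00486), and TA against WT stood at -0.29 (adjusted p = 0.22). Ddit3 (chr10:127290774-127296288) overlaps Mars (chr10:127296221-127311786), the methionyl-tRNA synthetase gene, on the other strand. The shared stretch is short, from 127296221 to 127296288, and Ddit3 has 1713 exon bases. Mars had a mean of 1535 counts per library against 457 for Ddit3 and fell by 0.26 on the log2 scale in TD against WT (adjusted p = 0.0254). Whether reads were counted by strand is not given in the sources used here, so the Ddit3 values are uncertain for reads in the shared stretch.

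Trib3, a pseudokinase induced by ATF4 and CHOP that restrains both ATF4 and insulin signalling, was at 73.2, 80.8, 94.9 and 70.6 CPM in WT and at 50.2, 43.9, 39.3 and 32 in TD. The 4 TD libraries lay below every WT library, and the fitted level was 1.93-fold lower (log2 -0.95 ± 0.190, adjusted p = 0.00167). TA libraries divided into 2 near the WT level (79.6 and 74.6 CPM, replicates 2 and 4) and 2 near the TD level (49.3 and 38.0, replicates 1 and 3). TA therefore differed from WT by -0.40 with adjusted p = 0.188, and TD from TA by -0.54 with adjusted p = 0.0609. The second of these passed the threshold without TA replicate 3 (-0.71, adjusted p = 0.00452) and without TD replicate 1 (-0.65, adjusted p = 0.0406). Over all single libraries left out it ran from -0.71 to -0.38, the smallest without TA replicate 2 (adjusted p = 0.222). The same TA replicates 1 and 3 also had the lower respiratory chain scores among the TA libraries, as described below.

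Chac1, which degrades glutathione and is among the genes most strongly induced by ATF4, showed 6.64, 5.46, 6.79 and 11.2 CPM in WT, 3.98, 5.53, 3.51 and 5.50 in TA, and 2.67, 2.86, 3.99 and 3.05 in TD. Every TD library was below every WT library, and the TA libraries overlapped both groups: replicates 2 and 4 lay just above the lowest WT library, and replicates 1 and 3 below the highest TD library. In TD it was 2.39-fold lower than in WT (log2 -1.26 ± 0.233, adjusted p = 0.000978), from 47 to 75 counts per TD library against 110 to 205 in WT. The TA difference of -0.70 ± 0.227 missed the threshold (adjusted p = 0.0582). It passed without WT replicate 2 (adjusted p = 0.0307), without TA replicate 2 (0.0448) and in DESeq2 (0.0317). In the other direction, the difference shrank to -0.44 without WT replicate 4 (adjusted p = 0.216), and adjusted p was 0.143 and 0.144 without TA replicates 1 and 3.

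Asns, asparagine synthetase, a classic ATF4 target of the amino acid response, was at 124, 94.6, 121 and 129.6 CPM in WT, at 83.5, 95.3, 75.8 and 103 in TA, and at 83.5, 83.3, 79.1 and 74.9 in TD. WT replicate 2 was the lowest WT library and lay within the TA range, while the TD libraries were below all 4. Asns fell by 0.55 ± 0.104 on the log2 scale in TD, 1.46-fold (adjusted p = 0.00115), and by 0.39 ± 0.104 in TA (adjusted p = 0.0227), with TD and TA apart by -0.16 (95% interval -0.38 to 0.063, adjusted p = 0.323). The TA call was lost on leaving out WT replicate 1, 3 or 4 or TA replicate 1 or 3 (adjusted p = 0.0548 to 0.0735), and with TD left out of the fit (0.0536).

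Phgdh and Psat1 catalyse the first and second steps of serine synthesis from glycolytic intermediates, and both are ATF4 targets. They did not move together. Phgdh was at 49.9, 39.3, 43.1 and 52.0 CPM in WT, at 22.7, 18.9, 26.6 and 23.7 in TA, and at 40.1, 38.2, 42.4 and 35.6 in TD. The TA libraries stood apart below all 8 others. Phgdh was 2.0-fold lower in TA than in WT (log2 -1.0 ± 0.109, adjusted p = 1.92e-05), and higher in TD than in TA by 0.77 ± 0.109 (adjusted p = 0.000244), whereas TD and WT overlapped and differed by -0.24 (adjusted p = 0.106), or by -0.31 without WT replicate 2 (adjusted p = 0.041).

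Psat1 was at 155, 143, 151 and 165 CPM in WT, at 149.7, 165, 159 and 186 in TA, and at 124, 129, 140.5 and 136 in TD. The TD libraries lay below all WT and TA libraries, by a small margin. The TD against TA difference of -0.32 ± 0.0774 (adjusted p = 0.0109) kept its call in all alternatives. The TD against WT difference of -0.21 ± 0.0773 (adjusted p = 0.0485) stood at the threshold and lost its call on leaving out WT replicate 1, 3 or 4, TA replicate 2 or any 1 of the TD libraries (adjusted p = 0.0561 to 0.137). The call was also lost with library totals alone (-0.14, adjusted p = 0.171) and with no filter on low counts (0.0839). Requiring at least 10 counts in every library gave 0.057.

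Of the mitokines, Gdf15 gave the largest difference of the set that passed the test. It encodes a stress-secreted hormone that lowers food intake through a receptor in the hindbrain. It was at 16, 8.94, 15.7 and 18.3 CPM in WT, at 3.39, 3.07, 2.5 and 5.67 in TA, and at 5.05, 6.90, 6.71 and 5.45 in TD. Even the lowest WT library (replicate 2) was above all 8 mutant libraries. Gdf15 was 4.01-fold lower in TA (log2 -2.0 ± 0.244, adjusted p = 5.5e-05) and 2.44-fold lower in TD (-1.29 ± 0.232, adjusted p = 0.000805). TD was above TA by 0.72 ± 0.251, with adjusted p = 0.0598. That last difference passed the threshold without TA replicate 4 (1.02, adjusted p = 0.0116), without WT replicate 2 (0.72, adjusted p = 0.0296), with a replicate block (0.77, adjusted p = 0.0468) and in DESeq2 (0.71, adjusted p = 0.0323). Over all single libraries left out it ran from 0.57 (without TA replicate 3, adjusted p = 0.12) to 1.02, and adjusted p reached 0.153 without TA replicate 2.

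Fgf21 encodes a fasting and stress hormone made mainly in liver, and also by activated brown and beige fat. It gave 5, 3, 14 and 13 counts in WT, 4, 16, 4 and 13 in TA, and 2, 5, 1 and 5 in TD, that is 0.149 to 0.712 CPM in WT, 0.223 to 0.984 in TA and 0.0532 to 0.293 in TD. WT and TA each held libraries of both high and low count, and TD overlapped the low ones. The differences of -1.29 (TD against WT, 95% interval -2.74 to 0.16, adjusted p = 0.173), 0.25 (TA against WT, -1.0 to 1.49, adjusted p = 0.846) and -1.53 (TD against TA, -2.97 to -0.096, adjusted p = 0.134) did not pass the test after adjustment.

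The receptors of both hormones were listed beside them. FGF21 acts on a receptor tyrosine kinase, mainly FGFR1, together with the co-receptor β-Klotho (Klb). Klb was at 41.9 to 70.6 CPM in WT, 53.5 to 65.6 in TA and 35.2 to 39.8 in TD, and fell in TD by 0.59 ± 0.127 against WT (adjusted p = 0.00261) and by 0.66 ± 0.128 against TA (adjusted p = 0.0026). Fgfr1 went the other way, at 216 to 244 CPM in WT, 212 to 258 in TA and 274 to 304 in TD, a rise of 0.34 ± 0.0762 in TD against WT (adjusted p = 0.00366). Fgfr2 rose in both mutants, from 20.3 to 27.0 CPM in WT to 46.8 to 54.3 in TA (log2 1.11, adjusted p = 3.56e-06) and 31.5 to 39.5 in TD (0.60, adjusted p = 0.000596). Fgfr3, at 9 to 14 counts per WT library, rose in TA (1.34, adjusted p = 0.00787) and was 0.83 higher in TD with adjusted p = 0.0506. Fgfr4 had at most 4 counts in any library. The GDF15 receptor Gfral was at 0 in all libraries, whereas its signalling partner Ret was at 2.73 to 3.97 CPM in WT, 6.43 to 8.11 in TA and 4.20 to 5.98 in TD, a rise of 1.09 in TA (adjusted p = 0.000483) and of 0.65 in TD (adjusted p = 0.00903). Of the 5 receptor genes tested, 3 rose and 1 fell in TD against WT, and 3 rose in TA against WT. The rises were 60% of the list each time, against 15.1% and 6.72% of all genes, and the fall was 20%, against 14.2%. With TD replicates 3 and 4 left out, 1 rose and 0 fell in TD against WT (edgeR, 3 higher and 1 lower at an unadjusted p under 0.05).

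Upstream of ATF4, the 4 eIF2α kinases differ in what they sense. HRI (Eif2ak1), which relays mitochondrial stress, was at 71.3 to 74.2 CPM in WT, 70.6 to 80.3 in TA and 62.7 to 65.4 in TD. It was the 1 kinase with a call, lower in TD by 0.17 ± 0.0616 against WT (adjusted p = 0.0462) and by 0.22 ± 0.0617 against TA (adjusted p = 0.0238). PERK (Eif2ak3), the kinase of the endoplasmic reticulum (ER), was at 28.9 to 32 CPM in TD, above the 23.4 to 27.1 of WT, with a difference of 0.27 ± 0.0984 and adjusted p = 0.0517. GCN2 (Eif2ak4), which senses uncharged tRNA, differed by 0.06 in TD against WT (adjusted p = 0.71) and by -0.02 in TA (adjusted p = 0.942). PKR (Eif2ak2), the sensor of double-stranded RNA, varied widely within genotypes, at 47.8 to 78.0 CPM in WT, 63.6 to 102 in TA and 57.0 to 91.9 in TD, and had adjusted p values of 0.243 in TD and 0.0729 in TA against WT. These are mRNA levels, and kinase activity was not measured here.

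Ppp1r15a, which encodes GADD34, the stress-induced phosphatase subunit that resets eIF2α, was at 39.7 to 62.9 CPM in WT, 28.1 to 41.7 in TA and 28.3 to 34 in TD. It fell in TD by 0.69 ± 0.135 (adjusted p = 0.00138) and in TA by 0.56 ± 0.135 (adjusted p = 0.0125). Eif2b3, a subunit of the exchange factor that recharges eIF2, fell by 0.65 (adjusted p = 0.000284) in TD and 0.38 (adjusted p = 0.019) in TA. Of the 15 kinase, phosphatase, eIF2 and eIF2B genes listed, 7 fell and none rose in TD against WT, 3 fell in TA against WT, and 2 fell in TD against TA, among them Eif2b2 (-0.46, adjusted p = 0.0218). These falls were 46.7%, 20% and 13.3% of the list, against 14.2%, 4.41% and 9.37% of all genes. Leaving out TD replicates 3 and 4, the falls in TD numbered 4 against WT and 0 against TA (edgeR, 3 lower against TA at an unadjusted p under 0.05), and in TA against WT 2 fell and 1 rose.

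The wider set of ATF4 targets did not follow the 10 genes as a block. Among 41 further regulators, enzymes, transporters and tRNA synthetases, 12 fell and 2 rose in TD against WT, a share of 29.3% lower against 14.2% of all genes, with a median log2 fold change of -0.09. In TA against WT 3 fell (7.32%, against 4.41% of all genes), with a median of -0.12. In TD against TA 4 rose and 5 fell (9.76% and 12.2%, against 7.33% and 9.37% of all genes), with a median of 0.0012. Without TD replicates 3 and 4 the first count was 3 of 41 instead of 14, and the last was 2 instead of 9. Leaving out WT replicate 1 or 4 or TD replicate 3 also took the first count to 9, and leaving out TD replicate 4 took it to 8. The TA against WT count rose to 5 with library totals alone and without WT replicate 2 or TA replicate 2 or 3, to 8 in DESeq2, to 9 without TA replicate 4 and to 10 with no filter on low counts. The count between TD and TA dropped to 4 without TA replicate 2 and to 5 without TA replicate 1 or TD replicate 2, 3 or 4.

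Mitochondrial folate metabolism held the largest fall of this wider set. Mthfd2, the mitochondrial methylenetetrahydrofolate dehydrogenase induced by ATF4, was at 83.3 to 86.1 CPM in WT, 50.6 to 78.1 in TA and 41.4 to 49.7 in TD. In TD it fell by 0.85 ± 0.110 against WT (adjusted p = 0.000117) and by 0.53 against TA (adjusted p = 0.00442). Its cytosolic relative Mthfd1 fell by 0.41 in TD (adjusted p = 0.00329) and by 0.34 in TA (adjusted p = 0.0228), while Mthfd1l, which works next to Mthfd2 in mitochondria, rose by 0.46 in TD (adjusted p = 0.0403).

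Amino acid transporters were divided. Slc1a5, a glutamine carrier, and Slc3a2, the heavy chain shared by several exchangers, fell in TD against WT by 0.55 (adjusted p = 0.00255) and 0.27 (adjusted p = 0.0312). Slc7a5, the large neutral amino acid exchanger, was lower in TA than in WT (-0.46, adjusted p = 0.00113) and higher in TD than in TA (0.27, adjusted p = 0.027). Slc7a11, the cystine importer, was at 11.8 to 25.1 CPM in WT, 7.67 to 18 in TA and 19.7 to 32.7 in TD, and the rise from TA to TD was 1.18 ± 0.268 (adjusted p = 0.00717). Slc7a5 and Slc7a11, like Phgdh, had their lowest mean in TA. Of the 9 transporters, 2 fell in TD against WT (22.2%, against 14.2% of all genes). Without TD replicates 3 and 4, 0 did (edgeR, 2 lower at an unadjusted p under 0.05).

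Of 13 tRNA synthetases, 5 fell in TD against WT, among them Wars (-0.44, adjusted p = 0.00204) and Gars (-0.31, adjusted p = 0.00436), and 1, Wars, fell in TA (-0.38, adjusted p = 0.0128). These falls were 38.5% and 7.69% of the list, against 14.2% and 4.41% of all genes. The count of falls in TD against WT was 2 without TD replicates 3 and 4. In TD against TA, Gars (-0.36, adjusted p = 0.00335) and Aars (-0.19, adjusted p = 0.0462) were lower. Of 12 regulators and enzymes, 3 fell and 1 rose in TD against WT (25% and 8.33%, against 14.2% and 15.1% of all genes). Without TD replicates 3 and 4, 0 passed (edgeR, 1 lower at an unadjusted p under 0.05). Gpt2, the mitochondrial alanine transaminase, was lower in TD than in WT (-0.55, adjusted p = 0.00766) and TA (-0.84, adjusted p = 0.000812), and Cth, of the transsulfuration pathway, fell by 0.31 (adjusted p = 0.0428), while Aldh18a1, of proline synthesis, rose by 0.26 (adjusted p = 0.0461). None of these 12 passed the test in TA against WT with edgeR, and at an unadjusted p under 0.05 there were 3 higher and 1 lower. The stress factors Atf3 (0.73, adjusted p = 0.0273) and Stc2 (0.45, adjusted p = 0.0224) were higher in TD than in TA, and Nupr1 was lower (-0.33, adjusted p = 0.0354).

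The motif printed above was then set against the calls of all 10872 tested genes with a promoter window. Of 305 such genes with TGATGNAA, 12.8% were called lower and 17% higher in TD against WT, compared with 15% and 15.2% of all 10872. In TA against WT the shares were 5.25% lower and 9.51% higher, compared with 4.64% and 6.64%.

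**Figure D4:**
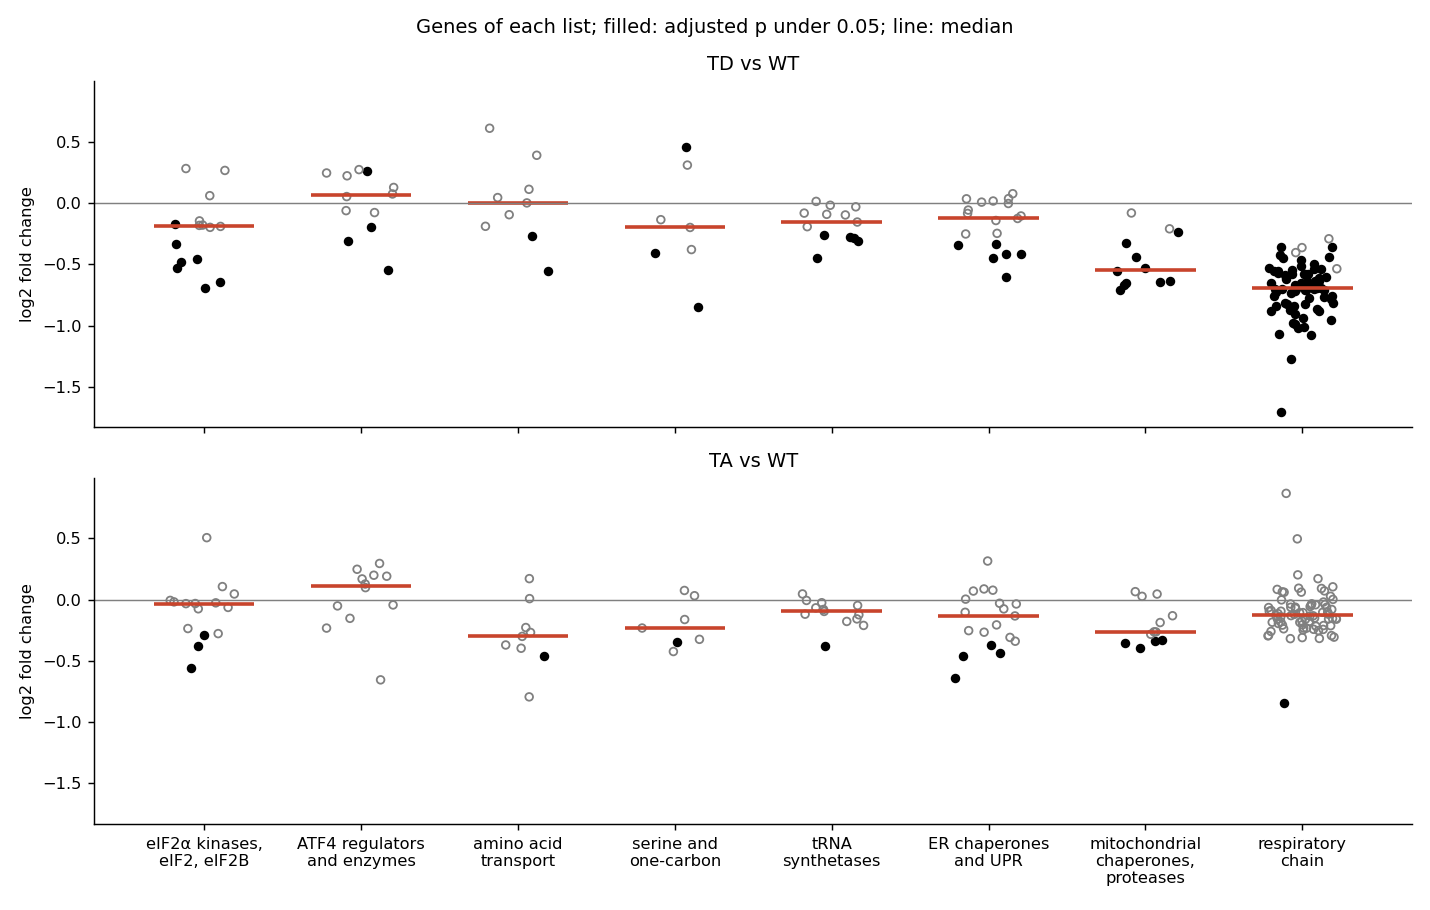
The log2 fold change (y axis) of each tested gene of 8 lists in TD against WT (top) and TA against WT (bottom): each point is a gene, filled where the adjusted p is under 0.05, and the red line is the list median. In TD 73 of 77 respiratory chain genes and 10 of 12 mitochondrial chaperones and proteases are filled and below 0, while the ATF4 lists lie on both sides of 0.

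ER chaperones and genes of the ER unfolded protein response fell in part. Of 19 genes 6 fell and none rose in TD against WT (median -0.13), and 4 fell in TA against WT (median -0.13). These falls were 31.6% and 21.1% of the list, against 14.2% and 4.41% of all genes. Hspa5, the ER chaperone BiP, was at 682 to 1139 CPM in WT, 627 to 694 in TA and 636 to 659 in TD, lower by 0.45 in TD (adjusted p = 0.00993) and 0.44 in TA (adjusted p = 0.0256). Sdf2l1 fell by 0.60 in TD (adjusted p = 0.0178) and 0.64 in TA (adjusted p = 0.0273), and the ER stress sensor Atf6 by 0.46 in TA (adjusted p = 0.00149). Dnajb9 was the 1 gene of this list lower in TD than in TA (-0.65, adjusted p = 0.00172). These counts were sensitive to single libraries. In TD against WT 3 genes passed without WT replicate 1 or TD replicate 2, 3 or 4, 2 passed without WT replicate 4, and 1 passed without TD replicates 3 and 4 together. In TA against WT 1 passed without WT replicate 1 or 4 or TA replicate 1, and 2 passed without TA replicate 2.

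Mitochondrial chaperones and proteases, the targets of the mitochondrial unfolded protein response with which ATF5 has been linked, were lower in TD. Of 12 genes, 10 fell and none rose in TD against WT (median -0.54), 4 fell in TA against WT (median -0.26) and 7 fell in TD against TA (median -0.28). These falls were 83.3%, 33.3% and 58.3% of the list, against 14.2%, 4.41% and 9.37% of all genes. With TD replicates 3 and 4 left out, 7 fell in TD and 3 in TA relative to WT (TD median -0.47), and 0 fell between TA and TD (median -0.24, edgeR, with 6 lower in TD at an unadjusted p under 0.05). Hspa9, the matrix chaperone mortalin, was at 1026 to 1251 CPM in WT, 765 to 1054 in TA and 673 to 777 in TD, a fall of 0.67 ± 0.0986 in TD (adjusted p = 0.000221) and of 0.35 in TA (adjusted p = 0.0274). The unfoldase subunit Clpx fell by 0.71 in TD (adjusted p = 0.000187). The protease Lonp1 fell by 0.40 in TA (adjusted p = 0.0265). Against TA, TD was lower in Clpp (-0.45, adjusted p = 0.0162) and in Hspe1 (-0.43, adjusted p = 0.0113).

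The nuclear-encoded respiratory chain transcripts, against which the stress genes were set, fell in TD, and 1 gene of the list passed the test in TA. Of 77 nuclear-encoded subunit genes tested, 73 fell and none rose in TD against WT (median -0.69), 1 (Cox7a1, -0.84, adjusted p = 0.0282) fell in TA against WT (median -0.13), and 71 fell in TD against TA (median -0.55). These falls were 94.8%, 1.3% and 92.2% of the list, against 14.2%, 4.41% and 9.37% of all genes. In TD, Cox7a1 (-1.70, adjusted p = 0.000193) and Cox8b (-1.27, adjusted p = 0.00122), both cytochrome oxidase subunits of heart, muscle and brown fat, fell most. The TA count was 0 without WT replicate 1 or 4 or TA replicate 3, 2 without WT replicate 3, 3 without TA replicate 4 and 8 without TA replicate 2. The TD against WT count was 60 without TD replicates 3 and 4, and the TD against TA count was then 28. Among all genes, calls were then 1516 in place of 4418 for TD against WT, and 634 in place of 2524 for TD against TA. Of the 13 mitochondrially encoded transcripts, 11 fell in TD against WT as well (84.6%, against 14.2% of all genes, median -0.84), and 7 without TD replicates 3 and 4. In TA against WT 2 of the 13 fell (15.4%, against 4.41% of all genes, median -0.28). Their sum was 46491 to 57246 CPM in WT, 26283 to 44251 in TA and 26453 to 32529 in TD. Of 10 adipocyte markers 9 fell in TD against WT (90%, against 14.2% of all genes), with a median of -0.53, and 6 fell without TD replicates 3 and 4. The part of fewer adipocytes in the respiratory chain values was not tested.

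A score per library, the mean log2 CPM of the 77 genes relative to the 12-library mean, was 0.27 ± 0.15 (SD, n = 4) in WT, 0.16 ± 0.18 in TA and -0.44 ± 0.15 in TD. All TD libraries (-0.62 to -0.32) lay below all others (lowest -0.044). Set beside this score, the stress genes were not higher in TD, the genotype with the lowest scores. In TD, the 4 libraries with the lowest scores, Asns was at 74.9 to 83.5 CPM, Ddit3 at 15.5 to 22.8, Trib3 at 32 to 50.2 and Gdf15 at 5.05 to 6.90, all below the WT libraries. By genotype mean, Gdf15 and Phgdh did not order with the score: both had their lowest mean in TA, whose scores overlapped those of WT. Within TA, replicates 1 and 3 had the lower scores (0.098 and -0.044, against 0.37 and 0.23). They also had the lower values of Atf5, Ddit3, Trib3, Asns, Chac1, Psat1 and Fgf21, but not of Atf4, Phgdh or Gdf15. Within WT, replicates 2 and 3 had the lower scores (0.157 and 0.162, against 0.477 and 0.297). Their Trib3 was higher (80.8 and 94.9 CPM, against 73.2 and 70.6). Their Asns, Gdf15, Phgdh and Psat1 were lower, while Atf4, Atf5, Ddit3, Chac1 and Fgf21 did not divide this way. Within TD, the scores were -0.316, -0.320, -0.485 and -0.623 in replicates 1 to 4. Ddit3, Trib3 and Asns fell in that order, and none of the other genes did. The libraries share genotype and cell makeup along this axis, so no correlation was tested.

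**Figure D5:**
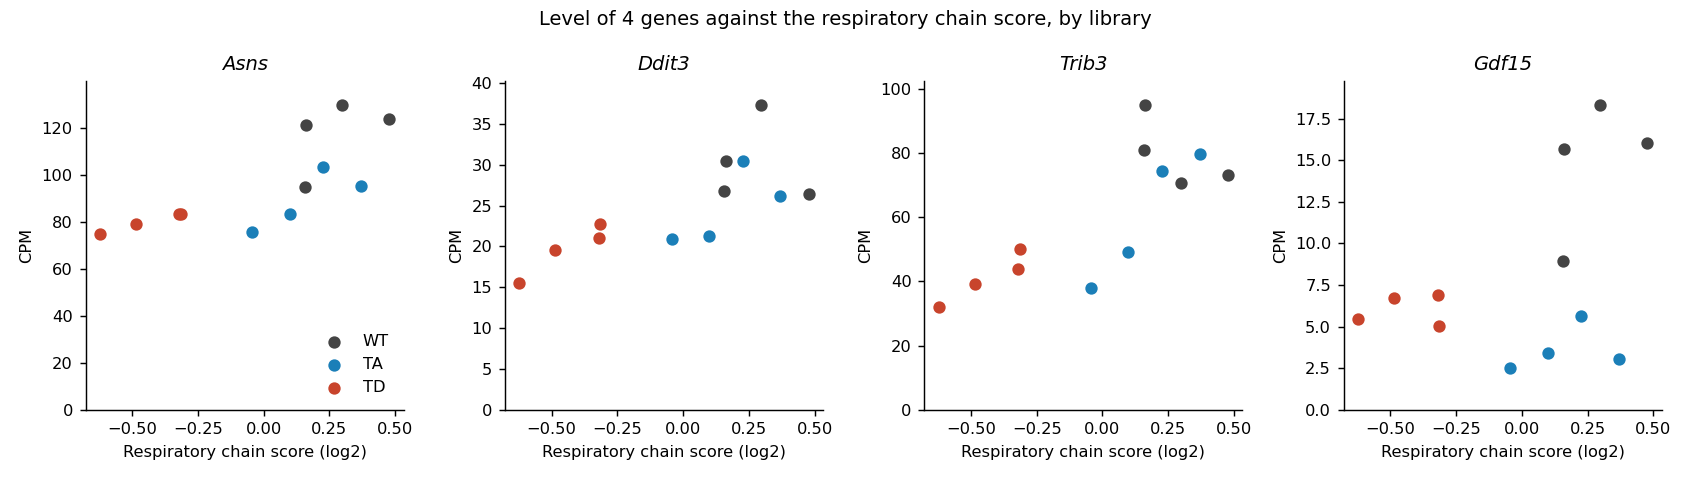
Level of Asns, Ddit3, Trib3 and Gdf15 in CPM (y axis, from 0) against the respiratory chain score (x axis, mean log2 CPM of 77 genes relative to the 12-library mean): each point is a library, coloured by genotype. The TD libraries, at scores of -0.62 to -0.32, sit at the low end of Asns, Ddit3 and Trib3, and 3 of the 4 TA libraries are the lowest of all for Gdf15.

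As a description of how the genes varied over the 12 libraries, the tested genes with the most similar pattern (Pearson's r of log2 CPM) were found for a transcription factor, a target and CHOP. For Asns the closest was Ppp1r15a (r = 0.983, and 0.957 after removing genotype means), itself a gene of the pathway, ahead of Slc25a23 (0.962) and Mif (0.96). Ddit3 was closest to Ufd1 (0.943), and 1700007L15Rik was at 0.934. The best values for Atf4, which varied least, were lower, with Fbxl12 at 0.827, Gm15361 at 0.818 and Fam216a at 0.816. Among the 10 genes themselves, Asns went with Chac1 (r = 0.899), Ddit3 (0.887) and Trib3 (0.835), whereas Atf4 and Asns had r = 0.401. Phgdh and Psat1, which act in 1 pathway, had r = -0.407, and Phgdh went with Gdf15 (r = 0.833). After removing genotype means these values were 0.293 and 0.364, so both rested on differences between genotypes. Asns with Chac1, Ddit3 and Trib3 then had r = 0.691, 0.764 and 0.59, and Atf4 with Asns 0.448. All these values are over libraries that share genotype, depth and cell makeup, and carry no p.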

How the data were processed

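RNA of 12 adipocyte libraries was sequenced on an Illumina instrument. The submitters' processing notes name bcl2fastq 2.17.1.14, cutadapt 1.9.1, HISAT2 2.0.1, HTSeq 0.6.1 and the build GRCm38. The authors deposited raw counts per gene, as a joint table and as 12 library files with equal values. Replicates of a genotype differed by more than sampling noise (chi-square per degree of freedom 4.67 to 35.3 over 18 pairs), so each library counted as 1 sample.

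Counts were analysed with edgeR 4.0.16 (R 4.3.3): filterByExpr (minimum count 10, minimum total 15, leaving 15117 of 55573 genes), TMM factors (0.957 to 1.04) and 1 quasi-likelihood fit to all 12 libraries with no covariate. P-values were adjusted over all genes tested (Benjamini-Hochberg, threshold 0.05), and SE values are the log2 fold change over the square root of F. Log2 CPM used a prior count of 2. DESeq2 1.42.0 was an alternative. On simulated counts for TD against WT (14948 genes tested), with 200 genes changed, 45% of changes of 0.5 and 75.5% of changes of 1 (log2) were recovered, with 4.8% false calls. Far more genes, 4418, were called in the real comparison, so these rates need not hold there. Gene positions and exon lengths came from GENCODE M21 (55394 of 55573 identifiers matched) and promoter windows from RefSeq. All pairs of equally numbered libraries had correlations of -0.237 to 0.196, so the numbers did not pair samples. All 10 genes, and from each other list up to 2 called rises and 2 called falls per comparison, were named, besides the kinases, Ppp1r15a, the receptors and the closest 3 genes of Atf4, Asns and Ddit3. A gene that this rule names is not reported here. Mars and correlations among the 10 genes were added afterwards where a result turned on them. The members and lists were chosen with earlier results of these data known.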

Additional observations from a re-analysis of the deposited data

How the results depend on the processing

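Over 30 gene results (10 genes in 3 comparisons) and 594 alternative values, 537 kept direction and side of the threshold, 33 lost a call, 16 gained one and 8 changed sign. Trib3, Asns, Chac1 and Gdf15 in TD against WT, Gdf15 and Phgdh in TA against WT, and the TD against TA calls of Phgdh and Psat1 kept their calls in all 20 alternatives each. The sign changes were of values near 0: Atf4 in TD against WT was 0.0084 with library totals alone, Atf4 in TA against WT was -0.014 without WT replicate 2 and -0.036 without TA replicate 4, Atf5 was -0.031 without WT replicate 4, -0.0096 without TA replicate 2 and -0.0085 without TA replicate 4, and Fgf21 was -0.046 without WT replicate 2 and -0.19 without TA replicate 2. The TA against WT values of these 3 genes reached 0.065, 0.064 and 0.54 at most on leaving out 1 library. Leaving out 1 library at a time gave, listed first for TD against WT, second for TA against WT and last for the 2 mutants compared, 3121 to 4705, 1160 to 1939 and 1422 to 3526 calls among all genes, 5 to 7, 2 to 4 and 2 to 4 among the 10 genes, 8 to 17, 2 to 9 and 4 to 12 among ATF4 targets, 2 to 7, 1 to 5 and 1 to 1 among ER genes, and 71 to 74, 0 to 8 and 62 to 73 among respiratory chain genes. With TD replicates 3 and 4 left out, an alternative chosen after seeing the data, calls in TD against WT were 1516 (in place of 4418) among all genes, 4 among the 10 genes, 3 among ATF4 targets and 1 among ER genes, and for the 2 mutants compared 634 (in place of 2524) among all genes, 2 among ATF4 targets and 28 among respiratory chain genes. Fewer samples alone lower such counts. With no filter on low counts, the 10 genes had 6 calls in TD against TA and 5 in TA against WT, where calls also numbered 10 among ATF4 targets, 8 among ER genes and 9 among respiratory chain genes. Library totals alone, which shifted the median of all genes by at most 0.077, gave 3 ER genes in TD against WT and 2 in TD against TA, and 5 ATF4 targets and 2 respiratory chain genes in TA against WT. DESeq2 gave 8 and 2 of the latter kinds, and a fit to TA and WT alone gave 1 ER gene. The cause of these differences was not tested. Replicate numbers did not pair the samples (2 of 12 libraries correlated best with their own number). With a replicate block, 4246, 1560 and 2488 genes were called, and the block changed 1 call among the 10 genes, Gdf15 in TD against TA (0.77, adjusted p = 0.0468). Fgf21 rested on 16 counts or fewer per library, and the part of depth in its results was not tested.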
